A study of Homo sapiens with 4 samples.

Results

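Toll-like receptors (TLRs) and their lipopolysaccharide co-receptors were followed in OCI-AML3 cells with and without knockout (KO) of mutant NPM1 (mtNPM1). The genes were TLR1, TLR2, TLR4, TLR5, TLR6, TLR7, TLR8, TLR9, CD14 and LY96, found by symbol and Ensembl identifier. All 10 had a row among the 58037 genes of the count table, and 6 of them, TLR1, TLR2, TLR4, TLR6, TLR8 and CD14, had enough reads to be among the 15718 genes tested. OCI-AML3 is an established human AML cell line. According to the study it carries a heterozygous NPM1 mutation together with DNMT3A and NRAS mutations, which both groups share. The cells were transfected either with a control guide RNA (sgNeg, the sgRNA Ctrl of the study) or with sgNPM1A, a guide directed at the mutant NPM1 allele, and RNA was sequenced after 3 days. Each group had 2 libraries, 4 in all, and no source used here says that the transfected cells were cloned. The study calls the libraries biological replicates, which the labels do not state, so the p-values measure the spread between these libraries.

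TLRs are transmembrane receptors by which monocytes, macrophages and other innate immune cells sense microbial products. TLR1, TLR2, TLR4, TLR5 and TLR6 sit at the cell surface. TLR2 pairs with TLR1 or TLR6 to bind bacterial lipopeptides, TLR5 binds flagellin, and TLR4 recognizes lipopolysaccharide once CD14 has handed it to the TLR4 complex with MD-2, the protein encoded by LY96. TLR7, TLR8 and TLR9 work in endosomes, where TLR7 and TLR8 sense single-stranded RNA and TLR9 senses unmethylated CpG DNA. Most of these receptors signal through the adaptor MYD88 to NF-kB and to interferon regulatory factors. CD14 is also a common surface marker of monocytes. The study reports CD14 staining in patient-derived AML cells, while it shows differentiation of OCI-AML3 cells by CD11b and by morphology.

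The promoters of TLR6, TLR8, CD14 and TLR4 are shown. TLR6 and TLR8 were higher with sgNPM1A, and CD14 lay just outside the threshold. TLR4 is a receptor in which no change was called, less abundant than TLR2, which was not called either and whose promoter is not printed. Each line gives the 250 bases before a start site chosen by RefSeq on GRCh38.p14, 5′ to 3′ on the strand of the gene; for TLR6 and CD14 this start lies inside the span of the longest gene model. Capitals mark exact matches, on either strand, to the motifs searched.
TLR6, chr4:38856818-38857067, minus strand: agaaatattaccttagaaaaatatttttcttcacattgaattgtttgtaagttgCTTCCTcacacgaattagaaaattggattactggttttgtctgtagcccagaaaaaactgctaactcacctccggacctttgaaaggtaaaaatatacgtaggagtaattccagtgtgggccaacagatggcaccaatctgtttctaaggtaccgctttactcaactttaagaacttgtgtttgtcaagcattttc
TLR8, chrX:12906370-12906619, plus strand: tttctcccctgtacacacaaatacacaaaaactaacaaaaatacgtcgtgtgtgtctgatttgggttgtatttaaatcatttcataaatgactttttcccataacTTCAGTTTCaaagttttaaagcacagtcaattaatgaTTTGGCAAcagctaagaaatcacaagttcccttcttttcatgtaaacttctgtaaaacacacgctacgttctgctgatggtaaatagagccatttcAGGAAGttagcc
CD14, chr5:140633176-140633425, minus strand: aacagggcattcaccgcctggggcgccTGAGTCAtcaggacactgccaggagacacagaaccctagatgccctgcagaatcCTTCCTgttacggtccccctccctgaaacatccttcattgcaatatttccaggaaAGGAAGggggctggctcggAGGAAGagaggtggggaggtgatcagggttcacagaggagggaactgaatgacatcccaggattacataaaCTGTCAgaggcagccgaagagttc
TLR4, chr9:117704153-117704402, plus strand: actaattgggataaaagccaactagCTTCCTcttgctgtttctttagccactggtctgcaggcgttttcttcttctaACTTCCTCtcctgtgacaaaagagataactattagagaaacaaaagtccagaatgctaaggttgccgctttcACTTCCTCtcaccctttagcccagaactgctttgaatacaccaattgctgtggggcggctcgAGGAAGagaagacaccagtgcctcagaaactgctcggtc

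The motifs were those of PU.1 (GAGGAAGT), the wider ETS family (AGGAAG, also contained in the PU.1 motif), C/EBP (TTGCNNAA), the E-box (CACGTG), the interferon-stimulated response element (GAAANNGAA), the TATA box (TATAAA), AP-1 (TGANTCA), HOX-MEIS (TGACAG) and NF-kB. RefSeq promoters of this length were given for 7 of the 10 genes, and TLR1, TLR7 and LY96 had no entry. The ETS letters were present in 6 of the 7 promoters, all but that of TLR5, and in 28.7% of all 35116 promoters. CD14 held 3 ETS matches, an AP-1 match and a HOX-MEIS match, the latter letters being in 6.57% and 13.0% of all promoters. The AP-1 letters were also present in TLR9, together with a TATA box (10.7% of all promoters). An E-box was present in TLR2 only (6.34% of all promoters). TLR4 held 4 ETS matches, 2 of which were also full PU.1 matches. The PU.1 letters were otherwise found in TLR9 only, against 2.17% of all promoters. TLR6 held a single ETS match and no other motif. TLR8 held an ETS match, a C/EBP match and a match to the interferon-stimulated response element, the latter letters being in 9.05% and 6.88% of all promoters. None of the 7 contained the NF-kB motif, found in 9.96% of all promoters. A match is a description of the letters and no measure of binding.

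Total counts lay between 25069484 and 28276391 per library, so that 3 counts, taken as the smallest count told from 0, equalled 0.108 to 0.118 CPM (counts scaled to a common library size). Intervals and floors based on counts cover counting error only. NPM1, the targeted gene, had 1319 and 1385 CPM in the sgNeg libraries and 1189 and 1132 CPM in the sgNPM1A libraries, a log2 fold change (log2FC) of -0.22, with an adjusted p of 0.0360 by the edgeR quasi-likelihood test. The difference was under the size required for a call, and reads of both NPM1 alleles are counted together. Of the lineage markers, CD3D, CD3E, CD2, KLRD1, MS4A1 and HBB had 0 counts in every library, while CD33, PTPRC and SPI1, which mark myeloid or blood cells in general, were abundant. In bulk RNA, fewer cells of a type and less RNA per cell cannot be told apart.

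TLR6 and TLR8 rose with mtNPM1 KO, whereas no change was called in TLR1, TLR2, TLR4 or CD14. A gene was called where its adjusted p was under 0.05 and its log2FC was at least 0.32 in size, the limits used by the study. The study applied its limits with DESeq2 and reported fewer genes in each direction than were called here with edgeR. By this rule, 2 of the 6 tested genes were higher and 0 were lower, where 10.5% of all tested genes were called higher and 10.3% lower. This count is a description, since TLR8 passed the filter on low counts only through the libraries in which it was high, and with at least 10 counts required in every library TLR6 was the 1 gene called. The 4 genes that were not tested had too few counts and are described apart. Both sgNPM1A libraries lay above both sgNeg libraries in 3 of the 6 genes, TLR6, TLR8 and CD14, and below them in 1, TLR2. Over all tested genes, such separations made up 31.4% and 31.7%, or 63.1% in either direction, against 4 of 6 here.

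**Figure D1:**
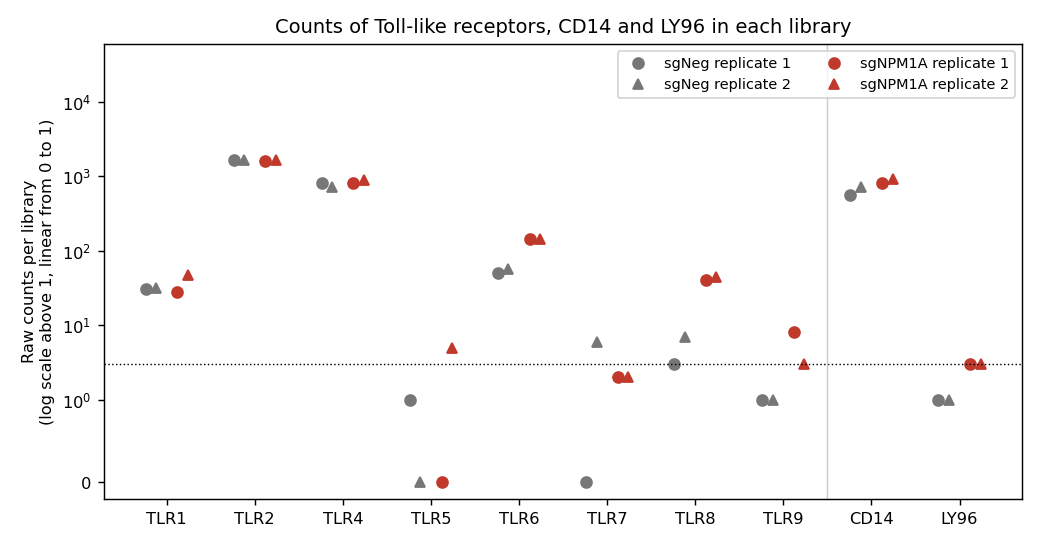
Raw counts (log scale above 1) of the 10 genes in the sgNeg libraries (grey) and the sgNPM1A libraries (red), with circles for replicate 1, triangles for replicate 2 and a dotted line at 3 counts. TLR6 went from 50 and 57 counts to 142 and 143, and TLR8 from 3 and 7 to 40 and 45, while TLR2 stayed between 1624 and 1680 counts before scaling.

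TLR6, the partner of TLR2 for diacylated lipopeptides, lies on chromosome 4 of GRCh38 from 38822897 to 38868390. It had 50 and 57 counts with sgNeg and 142 and 143 counts with sgNPM1A, or 1.97 and 2.20 against 5.09 and 5.15 CPM. The replicates lay close together in each group and the groups were far apart. TLR6 rose 2.45-fold, log2FC 1.30 (SE 0.18, 95% interval 0.91 to 1.68, adjusted p = 0.000279, edgeR). Of the 50-base words in its transcripts, 4.67% also occur in other genes, mainly TLR1, and its exons overlap those of TLR1 by 57 bases in GENCODE.

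TLR8 lies on chromosome X from 12906620 to 12923169 and shared no 50-base word with another gene. It had 3 and 7 counts with sgNeg and 40 and 45 counts with sgNPM1A. The level in the sgNeg libraries was thus at or near the floor, so the size of the change depends on few reads. It rose 7.68-fold, log2FC 2.94 (SE 0.41, 95% interval 2.05 to 3.84, adjusted p = 0.000309, edgeR). The log2FC was 3.65 without sgNeg replicate 2 and 2.48 without sgNeg replicate 1. From the summed counts alone the ratio was 7.84, with an exact counting interval of 4.06 to 16.9. Even after this rise, TLR8 had 1.53 ± 0.131 CPM (SD, n = 2 libraries), below TLR6 with 5.12 ± 0.0394 CPM. These values are not corrected for length. Per kilobase of the longest transcript, the sgNPM1A means were closer, 0.362 for TLR8 and 0.765 for TLR6.

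**Figure D2:**
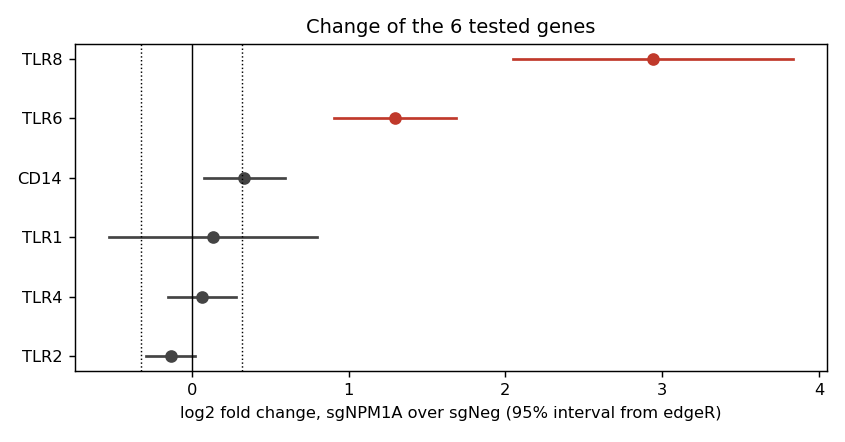
Log2 fold change of the 6 tested genes, sgNPM1A over sgNeg, with the 95% interval from edgeR; dotted lines mark a log2FC of 0.32 in either direction and red marks called genes. The intervals of TLR6 (0.91 to 1.68) and TLR8 (2.05 to 3.84) lie beyond the dotted line, while that of TLR1 (-0.53 to 0.80) spans both lines.

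TLR2, on chromosome 4 from 153684280 to 153710637, was the most abundant receptor by counts. It had 64.6 and 64.9 CPM with sgNeg and 58.3 and 59.6 CPM with sgNPM1A. The sgNPM1A libraries were slightly lower without overlap, but the log2FC of -0.13 did not pass the test (95% interval -0.29 to 0.02, adjusted p = 0.199, edgeR). The interval leaves out a change of the size required for a call. TLR1, which pairs with TLR2 for triacylated lipopeptides, lies on chromosome 4 from 38787569 to 38805644. It had 31 and 32 counts with sgNeg and 28 and 47 counts with sgNPM1A, so the groups overlapped. Its log2FC was 0.13 (adjusted p = 0.785, edgeR). At this depth the interval, -0.53 to 0.80, would still hold a change of callable size in either direction. In the ratio of per-length levels, TLR6 over TLR1 was 0.687 and 0.758 in the sgNeg libraries and 2.16 and 1.30 in the sgNPM1A libraries. TLR2 over TLR6 was 52.3 and 47.0 against 18.2 and 18.5. The difference between the changes of TLR6 and TLR1 was not itself tested.

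TLR4, the lipopolysaccharide receptor, lies on chromosome 9 from 117704403 to 117724735. Its level was 31.9 and 27.4 CPM with sgNeg and 29.6 and 32.3 CPM with sgNPM1A. The groups overlapped, and the log2FC was 0.06 (95% interval -0.15 to 0.28, adjusted p = 0.689, edgeR). An overlapping gene model on the same strand, without a row in the count table, covers 678 bases of the TLR4 exons in GENCODE.

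CD14, the surface protein that passes lipopolysaccharide to TLR4, lies on chromosome 5 from 140631732 to 140633701. It had 561 and 722 counts with sgNeg and 820 and 935 counts with sgNPM1A, or 22.1 and 27.9 against 29.4 and 33.7 CPM. Both sgNPM1A libraries were above both sgNeg libraries, with a gap smaller than the distance between replicates. The fold change was 1.26, log2FC 0.34 (SE 0.12, 95% interval 0.08 to 0.59), and the adjusted p of 0.0557 from edgeR missed the threshold. Without sgNeg replicate 2 the log2FC was 0.52 (adjusted p = 0.00820, edgeR) and without sgNPM1A replicate 1 it was 0.43 (adjusted p = 0.0194), while without sgNeg replicate 1 it was 0.18 (adjusted p = 0.261). Testing all genes with at least 1 count also brought CD14 under the threshold (adjusted p = 0.00653, edgeR), so its call depends on these and other choices of the model.

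LY96, which encodes the MD-2 subunit of the TLR4 complex, lies on chromosome 8 from 73991392 to 74099857. It had 1 count in each sgNeg library and 3 counts in each sgNPM1A library. All 4 values were at or under the floor, so no fold is given. TLR4 was measured at 709 to 898 counts per library, while its MD-2 partner was barely detected. The longest transcript has 12677 bases for TLR4 and 559 bases for LY96, so their raw counts are not directly comparable. Per length, TLR4 over LY96 was 35.8 and 31.3 in the sgNeg libraries and 12.1 and 13.2 in the sgNPM1A libraries. These ratios rest on LY96 counts at or under the floor.

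Of the remaining receptors, TLR5, TLR7 and TLR9 were near the floor in every library. TLR5, on chromosome 1 from 223109404 to 223143248, had 1 and 0 counts with sgNeg and 0 and 5 counts with sgNPM1A. Its ratio of summed counts, 4.61, had a counting interval of 0.516 to 218. TLR7, on chromosome X from 12867072 to 12890361, had 0 and 6 counts against 2 and 2 counts, a ratio of 0.615 with an interval of 0.128 to 2.59. No difference was detectable at this depth in either gene. TLR9, on chromosome 3 from 52221080 to 52225645, had 1 count in each sgNeg library and 8 and 3 counts with sgNPM1A. The ratio was 5.07, with a counting interval of 1.11 to 47.1 that leaves out the spread between replicates. Of its 50-base words, 98.2% also occur in an overlapping gene, ENSG00000173366, which had 0 counts in all libraries, so the count of TLR9 is uncertain. The remaining members of the family, which are not part of the list above, were at the same level. TLR3, the receptor for double-stranded RNA, had 1 and 0 counts against 1 and 1, and TLR10 had 0 and 0 counts against 5 and 0.

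Levels of the 6 tested genes were compared per kilobase of the longest transcript (RPKM). In the sgNeg libraries TLR2 came first with 15.4 ± 0.0523 RPKM (SD, n = 2 libraries) and CD14 next with 15.2 ± 2.49 RPKM. They were followed by TLR4 with 2.34 ± 0.255 RPKM and, far lower, by TLR1 with 0.431 ± 0.00398, TLR6 with 0.311 ± 0.0247 and TLR8 with 0.046 ± 0.026 RPKM. The values of TLR2 and CD14 overlapped. In the sgNPM1A libraries CD14 came first with 19.2 ± 1.83 RPKM, before TLR2 with 13.9 and 14.2 RPKM in its libraries. TLR4 followed with 2.44 ± 0.153 RPKM, then TLR6 with 0.765 ± 0.00588, TLR1 with 0.473 ± 0.171 and TLR8 with 0.362 ± 0.0311 RPKM. Here TLR1 and TLR8 overlapped. LY96, which was not tested, was at 0.0697 RPKM with sgNeg (1 count per library) and 0.193 RPKM with sgNPM1A (3 counts per library). The sgNeg value is above that of TLR8, but such counts are at or under the floor and LY96 is not ranked. The order depends on the length used: per kilobase of all exons joined, CD14 with 15.2 RPKM already exceeded TLR2 with 11.2 RPKM in the sgNeg libraries, and TLR6 with 0.304 RPKM exceeded TLR1 with 0.271 RPKM. CD14, TLR2 and TLR4 together made up 97.4% and 97.3% of the summed per-length level of the 10 genes in the sgNeg libraries and 95.1% and 94.8% in the sgNPM1A libraries.

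TLR1 and TLR6 are neighbours on chromosome 4, with a gap of 17252 bases in RefSeq, and TLR10 lies 4578 bases from TLR1. TLR7 and TLR8 are 16258 bases apart on chromosome X. Within both pairs of neighbours, then, the gene that rose lay beside a gene in which no change was called or which could not be tested. The nearest tested gene on the other side of TLR6, TMEM156, had log2FC -0.29 (adjusted p = 0.561, edgeR). On the other side of TLR8, TMSB4X, which encodes the actin-binding peptide thymosin beta 4, rose from 879.6 to 2026 CPM, log2FC 1.20 (adjusted p = 1.25e-06, edgeR). PRPS2, the nearest tested gene beyond TLR7, also rose (log2FC 0.35, adjusted p = 0.0120). Around CD14, SLC35A4 had a log2FC of 0.06 and NDUFA2 of 0.19, and neither was called. Beside TLR5, which could not be tested, CAPN2 was called higher (log2FC 0.33, adjusted p = 0.0109, edgeR). Apart from TLR6 beside TLR1, no other nearest tested gene around TLR1, TLR2, TLR4, TLR5, TLR9 or LY96 was called.

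The pathway around the receptors was followed with lists of genes by role. Of 105 listed genes 91 were tested, of which 11 were higher and 20 lower with sgNPM1A. The share called in either direction was 34.1%, against 20.8% of all tested genes. Without sgNPM1A replicate 2, 19 of the listed genes were called in place of 31.

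**Figure D3:**
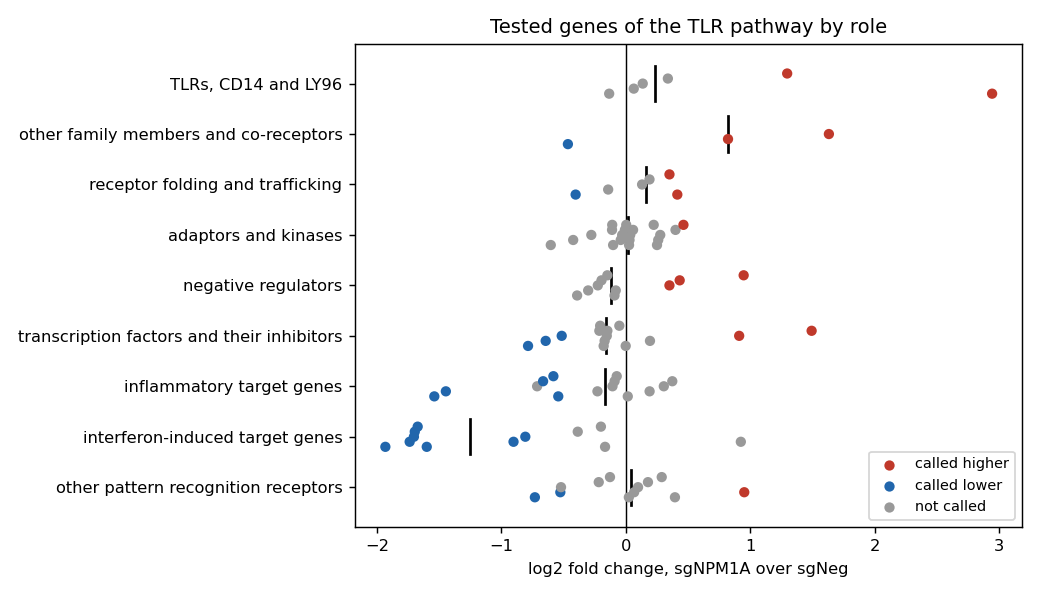
Log2 fold change of each tested gene, sgNPM1A over sgNeg, by role; red marks genes called higher, blue genes called lower, grey genes not called, and black bars the median of each list. The adaptors and kinases gather around 0 with a median of 0.01, while the interferon-induced genes have a median of -1.25.

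Among other co-receptors, LY86 and CD36 rose and CD180 fell, these being the 3 tested of 6 listed genes. LY86 encodes MD-1, the partner of the TLR homologue CD180, and had 134 and 181 counts with sgNeg and 492 and 565 counts with sgNPM1A (log2FC 1.63, SE 0.15, adjusted p = 1.24e-05, edgeR). CD180 itself went from 27.2 ± 0.109 to 19.7 ± 0.715 CPM (SD, n = 2 libraries per group), log2FC -0.47 (adjusted p = 0.00287, edgeR), so the subunits of this complex changed in opposite directions. CD36, a scavenger receptor that assists TLR2 with TLR6, went from 98.9 ± 5.19 to 174.5 ± 17.8 CPM, log2FC 0.82 (adjusted p = 2.74e-05, edgeR). LBP, the serum protein that brings lipopolysaccharide to CD14, had 0 and 2 counts against 4 and 5.

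Of the 6 genes for receptor folding and trafficking, 2 were higher and 1 lower. HSP90B1, the endoplasmic reticulum chaperone gp96 that most TLRs need, rose (log2FC 0.35, adjusted p = 0.00458, edgeR), and SLC15A4, an endolysosomal transporter needed for TLR7 and TLR9 signalling, rose as well (log2FC 0.41, adjusted p = 0.0270). CNPY4, a relative of a chaperone of TLRs, fell (log2FC -0.40, adjusted p = 0.0200). UNC93B1, which carries the nucleic acid receptors to endosomes, had 291.9 ± 5.40 and 264.4 ± 5.86 CPM and was not called (log2FC -0.14, adjusted p = 0.123, edgeR). These calls are close to the threshold: 0 of the 6 were called without sgNeg replicate 2 or without sgNPM1A replicate 2, and 1 without sgNPM1A replicate 1.

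Among the 20 tested of 21 adaptors and kinases, 1 was higher and 0 were lower, and the median log2FC was 0.01. MYD88 was measured at 72.4 ± 5.67 CPM with sgNeg and 72.0 ± 1.09 CPM with sgNPM1A, a log2FC of -0.01 with a 95% interval of -0.18 to 0.16 (adjusted p = 0.951, edgeR). IRAK1, the kinase it recruits, had a log2FC of 0.03 and IRAK4 of -0.28 (adjusted p = 0.823 and 0.0786, edgeR). TICAM1, which encodes the adaptor TRIF of TLR3 and TLR4, had -0.11 and TIRAP, which links MYD88 to TLR2 and TLR4, had -0.42 (adjusted p = 0.413 and 0.258). TICAM2, the bridging adaptor between TLR4 and TRIF, had 1 count in 1 of the 4 libraries. The gene called was SYK, a tyrosine kinase of many immune receptors, which rose (log2FC 0.46, adjusted p = 0.000461, edgeR). Without sgNeg replicate 1, and without sgNPM1A replicate 1, 3 genes of this list were called.

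Of the 10 tested negative regulators 3 were higher and 0 lower. TNFAIP3, which encodes the ubiquitin-editing inhibitor A20, went from 10.4 ± 0.799 to 20.1 ± 0.690 CPM (log2FC 0.95, adjusted p = 7.79e-05, edgeR). IRAK3, the kinase homologue that restrains IRAK signalling, rose (log2FC 0.43, adjusted p = 0.000860) and so did TOLLIP, an adaptor that dampens the pathway (log2FC 0.35, adjusted p = 0.00378). The median of the list was -0.12, and 7 of the 10 had values below 0 without being called. Of 14 transcription factors and their inhibitors, 2 were higher and 3 lower. IRF5, an interferon regulatory factor activated by MYD88-dependent receptors, had 1610 and 1663 counts with sgNeg and 4883 and 5094 counts with sgNPM1A, log2FC 1.49 (SE 0.07, adjusted p = 9.52e-08, edgeR). JUN, a subunit of AP-1, rose (log2FC 0.91, adjusted p = 7.44e-05). NFKBIZ fell by 0.79 (adjusted p = 0.000147), RELB by 0.65 (adjusted p = 0.000346) and IRF7 by 0.52 (adjusted p = 0.0127) on the log2 scale. NFKB1 and RELA, the classical NF-kB subunits, were not called.

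In the main test, lists of genes that TLR signalling can induce held 0 genes called higher, which some alternatives given below changed. TNFAIP3 and JUN, counted above under other roles, can also be induced by this signalling and were higher. Of 14 tested inflammatory target genes 0 were higher and 5 lower, with a median log2FC of -0.17. IL1B, which encodes the cytokine interleukin-1 beta, had 1424 and 1595 counts with sgNeg and 633 and 567 with sgNPM1A and fell (log2FC -1.45, SE 0.09, adjusted p = 9.00e-07, edgeR). The chemokine gene CCL5 fell by 0.67 (adjusted p = 0.000866) and the cytokine gene TNF by 0.54 (adjusted p = 0.00684) on the log2 scale, and CCL2 and CCL3 were the others called. CXCL8, with 3836 to 4868 counts per library, had log2FC -0.07 (adjusted p = 0.607) and IL6 had 0 counts in all libraries. Without sgNPM1A replicate 2, 2 genes of this list were called. Of 12 tested interferon-induced genes 0 were higher and 8 lower, with a median of -1.25. OAS2 and OAS3, sensors of double-stranded RNA, each fell (log2FC -1.70, adjusted p = 6.87e-06 and 1.72e-05, edgeR). OAS2 had 356 and 335 counts with sgNeg and 126 and 105 counts with sgNPM1A. RSAD2 was the exception in sign, with 7 and 26 counts against 37 and 31 (log2FC 0.92, adjusted p = 0.149). Without sgNPM1A replicate 2, 5 genes of this list were called. The interferon gene IFNB1 had 1 count in 1 library.

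The check of CD14 against other markers of mature myeloid cells gave unequal changes. Of the 6 monocyte markers reported, all tested, 4 were higher and 1 lower. LYZ, which encodes lysozyme, had 6879 and 5571 counts with sgNeg and 73664 and 93496 counts with sgNPM1A, log2FC 3.63 (SE 0.13, adjusted p = 3.94e-08, edgeR). FCGR1A rose by 1.71, FCN1 by 1.71 and CSF1R by 1.22 on the log2 scale. In contrast CD163, a macrophage scavenger receptor, went down from 27.7 ± 0.323 to 3.47 ± 0.0160 CPM (SD, n = 2). VCAN was not called. The summed level of the list was 443.9 to 500.5 CPM with sgNeg and 2891 to 3653 CPM with sgNPM1A, where LYZ had 3005 ± 512 CPM. Of the 6 granulocyte markers, CSF3R and CXCR2 rose (log2FC values 1.40 and 1.66, adjusted p = 1.35e-07 and 6.59e-07, edgeR), FCGR3B and CEACAM8 had 0 counts in every library, and the sum was 97.9 to 102.0 against 263.3 to 274.8 CPM. The summed markers of T and NK cells were 4.05 to 4.83 against 3.44 to 4.11 CPM, those of B cells 1.43 to 2.05 against 1.29 to 1.73 CPM, and those of erythroid cells and megakaryocytes 0.275 to 0.386 against 0.502 to 0.828 CPM. In those lists 0 of 2, 0 of 1 and 1 of 1 tested genes were called, the last being PPBP with 2 and 2 counts against 11 and 16. Of 5 general myeloid markers 3 were higher, and their sum was 786.3 to 828.2 against 1029 to 1033 CPM. Among them SPI1, which encodes PU.1, rose (log2FC 0.48, adjusted p = 0.000552, edgeR). The part of these markers in the rise of TLR6 and TLR8 was not tested.

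**Figure D4:**
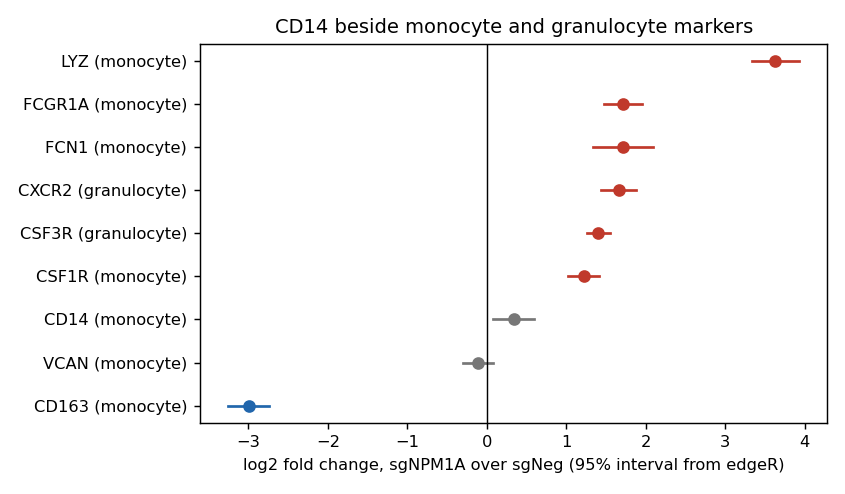
Log2 fold change, sgNPM1A over sgNeg, of CD14 and the tested monocyte and granulocyte markers with the 95% interval from edgeR; red marks genes called higher, blue genes called lower and grey genes not called. CD14 (0.34) lies between CD163 (-3.00) and LYZ (3.63), above VCAN (-0.11) and below CSF1R (1.22).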

How the data were processed

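RNA-Seq counts from 4 libraries of OCI-AML3 cells, 2 transfected with sgNeg and 2 with sgNPM1A, were analysed. The authors aligned read pairs to hg38 (their notes name STAR and Samtools) and the deposited table holds raw counts by Ensembl identifier. The counting program, its use of strand and the annotation release are not given in the sources used here. Symbols came from GENCODE identifiers. Positions and promoters are those of RefSeq on GRCh38.p14, while transcript lengths, shared 50-base words and exon overlaps were taken from GENCODE v44 on GRCh37, of which no coordinates are given.

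Genes were filtered with filterByExpr by group at a minimum count of 10, normalized by TMM and tested with edgeR 4.0.16 in R 4.3.3 by the quasi-likelihood F test, two-sided, with robust estimates. Adjustment was by Benjamini-Hochberg over all 15718 tested genes. Calls needed an adjusted p under 0.05 and a log2FC of at least 0.32 in size. CPM are TMM-normalized, and the common biological coefficient of variation was 0.0619. With 2 libraries a group the smallest two-sided p of an exact permutation test is 0.333, and edgeR reaches lower values by sharing variance between genes. The procedure was tested on simulated data. Genes that were not tested are given as counts, with exact (Clopper-Pearson) counting intervals of ratios.

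Alternatives were DESeq2 1.42.0, limma 3.58.1 on quantile-normalized log2 CPM, other size factors, filters and thresholds, blocks by replicate number and leaving out each library. The genes and lists were chosen with earlier results of these data known. SOD2 had no matching identifier, and 1 listed marker gene is not reported here. Named from each list were up to 2 called genes per direction with the smallest adjusted p, the direct partners of the receptors and the nearest tested genes; for CD14 and the most abundant receptor, also the 3 genes most alike in pattern. TNF, CCL2, CCL3, IRF7, TOLLIP, NFKB1, RELA, CXCL8, IL6, IFNB1, RSAD2, LBP, SPI1 and the other markers were named after their values were seen.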

Additional observations from a re-analysis of the deposited data

How the results depend on the processing

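Over up to 13 alternatives to the test, normalization, filter, block and set of libraries, TLR6 and TLR8 were called higher in every one that tested them, with log2 fold changes of 1.22 to 1.38 (adjusted p at most 0.00270) and 2.48 to 3.65 (adjusted p at most 0.00385). TLR2 was never called (-0.18 to -0.12), nor were TLR1 (-0.29 to 0.46 with each library left out) and TLR4 (-0.04 to 0.18). With at least 10 counts in every library TLR8 was not tested, which left 1 gene called higher; 0 of the 10 genes were called lower under any alternative. Without sgNPM1A replicate 2 the log2 fold change of TLR1 was -0.29 and that of TLR4 was -0.0028, and without sgNeg replicate 2 that of TLR4 was -0.043. CD14 was called with no filter on low counts (0.33), without sgNeg replicate 2 (0.52) and without sgNPM1A replicate 1 (0.43). With each library left out, which leaves 1 library in a group that is assumed to vary like the other group, the genes called higher numbered 2 to 3 and the listed pathway genes called 19 to 30, against 31.

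The labels number the libraries of each group 1 and 2, and nothing in the sources used here says that same-numbered libraries were handled together. Taken across genes, the departures from the group mean correlated at -0.130 between libraries with the same number, and at -0.523 in the 8856 genes that averaged more than 10 CPM, so same-numbered libraries tended to depart in opposite directions. With the replicate block CD14 was called (log2 fold change 0.34, adjusted p = 0.0385, edgeR); over all genes it gave 1637 higher and 1604 lower, against 1653 and 1619. The crossed replicate block, chosen after seeing the data, gave 1955 and 1918, and 3 of the 10 genes were called higher under either block, CD14 among them.

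A fold of at least 2 left 10 of the listed pathway genes called: 1 co-receptor, 0 folding and trafficking genes, 0 adaptors and kinases, 0 negative regulators, 1 transcription factor, 2 inflammatory genes and 0 other pattern recognition receptors, with the interferon-induced genes making up the rest. DESeq2 called 1 folding and trafficking gene, 3 inflammatory, 5 interferon-induced and 1 other pattern recognition gene. With at least 10 counts in every library 5 interferon-induced genes were called. In this list 1 gene was called higher with no filter on low counts and under either replicate block, against 0 in the main test. Among the inflammatory genes 1 was called higher under the crossed replicate block and with unadjusted p, also against 0. With no fold threshold 3 adaptors and kinases and 5 other pattern recognition receptors were called. With each library left out the called genes numbered 0 to 3 for folding and trafficking, 1 to 3 for adaptors and kinases, 2 to 5 for inflammatory, 5 to 8 for interferon-induced and 1 to 3 for other pattern recognition genes. With lengths of joined exons, 4 of the 6 genes changed place in the order of levels with sgNeg and 2 with sgNPM1A. Apart from construction (fewer genes tested, fewer libraries, a stricter fold), the cause was not tested. Depth limits TLR5, TLR7, TLR9 and LY96, which had at most 8 counts in any library.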

Other observations

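Of 12 other pattern recognition receptors, all tested, 1 was higher and 2 were lower with sgNPM1A. NLRC4, an inflammasome subunit for bacterial flagellin, had 15 and 14 counts with sgNeg and 31 and 30 counts with sgNPM1A (log2 fold change 0.95, adjusted p = 0.0473, edgeR). This call was lost under most of the alternatives, among them DESeq2, limma, no filter on low counts, and leaving out sgNeg replicate 1, sgNPM1A replicate 1 or sgNPM1A replicate 2. The cytosolic RNA sensors RIGI and IFIH1 fell by 0.73 and 0.53 on the log2 scale (adjusted p = 0.00301 and 0.0325, edgeR). RIGI had 195 and 225 counts with sgNeg and 137 in each sgNPM1A library. Without sgNPM1A replicate 1, and without sgNPM1A replicate 2, 1 gene of this list was called.

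Over the 4 libraries, the genes whose log2 CPM followed CD14 most closely, by Euclidean distance after centring, were DUS4L (0.0412), GPR18 (0.0675) and EID2 (0.0799), and those most like TLR2 were NLE1 (0.00911), TXNL1 (0.00963) and CNOT4 (0.0116), each among 10180 genes that averaged 5 CPM or more. The distances are given as a description.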
